A study of Mus musculus with 4 samples.

Results

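The genes described here encode subunits of the chromatin remodelling complexes, with a few related proteins. They are the 60 of 40213 gene symbols in the deposited tables that match a fixed list of names (the Smarca to Smarce genes, Chd1 to Chd9, the Arid, Baz, Ino80, Mta, Gatad2, Actr, Dpf and Ruvbl genes, Rbbp4, Rbbp7, Pbrm1, Bptf, Actl6a, Atrx, Srcap and Hells). The match used names and no measured value, but the list was chosen with earlier results of these data known. The genes were placed by textbook knowledge in SWI/SNF (16 genes), CHD/NuRD (16), ISWI (7) and INO80 with its relative SRCAP (11). A further 4 genes encode SNF2-type ATPases outside these families, and 6 encode ARID-domain proteins that are not remodeller subunits. The cells were RAW264.7, a mouse macrophage cell line. They were kept for 48 h with material labelled Gel (2 libraries) or CuNZ@Gel (2 libraries), read here as a hydrogel without and with CuNZ, an abbreviation that the labels do not explain. Both groups share the cell line, the time and the gel, and a group without gel was not analysed here. Whether the replicates were grown as separate cultures is not stated, so the p-values reflect variation among these libraries only, and that variation may be technical.

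Chromatin remodellers use the energy of ATP to slide, eject or restructure nucleosomes. Each family is built around its own SNF2-type motor. SWI/SNF mainly opens chromatin at enhancers and promoters, and ISWI mainly spaces nucleosomes. NuRD joins a CHD motor to histone deacetylases, whereas INO80 and SRCAP exchange histone variants such as H2A.Z. In macrophages, SWI/SNF and NuRD are known for their part in switching inflammatory genes on and off. RNA levels report the supply of subunit transcripts, not the amount or activity of assembled complexes.

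The libraries held 13716000 to 14880000 reads, as recovered from the steps of the deposited values. Levels are in scaled CPM, that is, CPM divided by 1 further factor per library, and they are not divided by gene length. The test took in genes with 2 or more libraries at a level of 1 scaled CPM or above. All 8 macrophage markers examined were present, with group means from 39.6 to 5888 scaled CPM. The 17 markers of T cells, B cells, epithelium, fibroblasts and endothelium had group means of at most 1.80 scaled CPM. Their summed level was 1.38 and 1.87 in Gel and 4.54 and 3.62 in CuNZ@Gel, its part in the results was not tested, and Ms4a1 and Cd3e were listed at 0 in all libraries. RNA from a whole culture does not separate a change in every cell from a change in the share of cells.

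The 250 bases upstream of the annotated start are shown for the genes that lead SWI/SNF (Smarca2), ISWI (Baz2a), INO80 (Ino80b) and the other ATPases (Atrx), each with the smallest p of its group among genes with a single listed start. Smarca2, Baz2a and Atrx rose in CuNZ@Gel, and Ino80b fell. The sequences come from RefSeq (build GRCm38.p6, not the build of the expression files), which gave a start for 47 of the 60 genes. They are written 5′ to 3′ on the strand of the gene, with motif matches in capitals.
Smarca2, chr19:26604910-26605159 (plus strand): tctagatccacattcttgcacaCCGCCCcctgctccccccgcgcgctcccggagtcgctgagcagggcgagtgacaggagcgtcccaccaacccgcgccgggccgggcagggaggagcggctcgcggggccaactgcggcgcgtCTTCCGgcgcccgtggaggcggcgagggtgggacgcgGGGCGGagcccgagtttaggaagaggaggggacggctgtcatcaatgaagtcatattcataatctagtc
Baz2a, chr10:128092533-128092782 (plus strand): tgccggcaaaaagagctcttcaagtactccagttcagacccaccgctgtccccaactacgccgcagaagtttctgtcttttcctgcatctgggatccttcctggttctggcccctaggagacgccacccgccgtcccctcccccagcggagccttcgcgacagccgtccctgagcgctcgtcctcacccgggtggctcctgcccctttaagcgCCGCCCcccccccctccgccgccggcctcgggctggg
Atrx, chrX:105929373-105929622 (minus strand): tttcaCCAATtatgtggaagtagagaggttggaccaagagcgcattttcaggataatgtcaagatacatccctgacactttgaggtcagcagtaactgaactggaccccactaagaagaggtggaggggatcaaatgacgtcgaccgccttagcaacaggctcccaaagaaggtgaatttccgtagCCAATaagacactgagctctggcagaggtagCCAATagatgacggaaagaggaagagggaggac
Ino80b, chr6:83125120-83125369 (minus strand): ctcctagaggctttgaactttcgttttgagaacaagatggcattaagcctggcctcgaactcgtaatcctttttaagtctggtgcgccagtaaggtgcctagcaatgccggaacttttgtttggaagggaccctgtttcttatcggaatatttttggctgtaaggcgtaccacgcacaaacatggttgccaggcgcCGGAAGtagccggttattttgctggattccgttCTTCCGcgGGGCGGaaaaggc
Both strands were searched for the CCAAT box (CCAAT), the GC box (GGGCGG), the E-box (CACGTG), the ETS core (CGGAAG) and the cAMP response element (TGACGTCA). The core of the antioxidant response element (TGACNNNGC), which can share its first letters with the cAMP response element, and the NRF1 core were searched as well. No match overlapped another in the 4 sequences. Smarca2 had 2 GC boxes and 1 ETS core, Baz2a had 1 GC box, and Ino80b had 1 GC box and 2 ETS cores. Atrx stood apart in this set with 3 CCAAT boxes and no GC box. A CCAAT box as such was common, upstream of 23 of 47 members against 33.85% of all listed starts. It lay upstream of 9 of 21 raised genes, 8 of 15 lowered genes and 4 of 8 genes not called. Over the members with a listed start, a GC box lay upstream of 15 of 21 raised genes and 13 of 15 lowered genes. It also lay upstream of 6 of 8 genes that were not called, and so of most members whatever their call (37 of 47), against 32.7% of all 32851 listed starts. The core of the antioxidant response element lay upstream of 3 of 21 raised and 1 of 15 lowered genes, against 10.2% of all starts. These matches describe letters in the sequence and not sites of binding, and genes with several listed starts had more chances to hold a motif.

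Of the 60 genes, 57 were tested, and 45 of these changed between the groups at an adjusted p under 0.05 (limma with Benjamini-Hochberg adjustment over all tested genes). Levels were higher in CuNZ@Gel for 26 and lower for 19. Over all 11588 tested genes, 67.1% were called, 32.2% as raised and 34.8% as lowered. Among the members these shares were 78.9%, 45.6% and 33.3%, so the share lowered was near that of all genes. The median log2 change was 0.13 for the members and -0.03 for all tested genes. The groups did not overlap for 30 members that were higher and 22 that were lower in CuNZ@Gel, against 39.8% and 43.5% of all tested genes (83.2% in either direction). Most changes were modest, and against a minimum fold of 1.5 8 members were called as raised and 3 as lowered (14.0% and 5.26%), where 8.76% and 8.11% of all tested genes were called (16.9% in all).

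The counts by family pointed different ways. All 6 tested ISWI genes rose, but 5 did with any 1 library left out, and with length and GC content corrected for 4 were called as raised and 1 as lowered. In INO80, 2 of 11 genes rose and 6 fell (18.2% and 54.5%). SWI/SNF had 4 of 14 raised and 5 lowered (28.6% and 35.7%), and CHD/NuRD 7 of 16 raised and 5 lowered (43.8% and 31.3%). Of all tested genes 32.2% were raised and 34.8% lowered, so both shares of SWI/SNF and the share lowered of CHD/NuRD were near those of all genes. The median log2 changes were 0.45 for ISWI, -0.32 for INO80, -0.13 for SWI/SNF and 0.11 for CHD/NuRD. These are counts and medians, and no test of one family against another was made. Scaling by total reads only moved the median of all tested genes by 0.18, and the members then had 31 raised and 11 lowered genes, where 43.3% and 24.8% of all tested genes were called (68.1% in all). The calls lost were those of Smarcb1, Actl6a, Chd7, Rbbp4, Gatad2b, Ruvbl1, Actr8 and Actr5, and those gained, all as raised, were Pbrm1, Chd2, Mta2, Ino80c and Actr6. The ISWI count stayed at 6 raised, INO80 had 4 raised and 3 lowered, and the SWI/SNF median became 0.05.

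**Figure D1:**
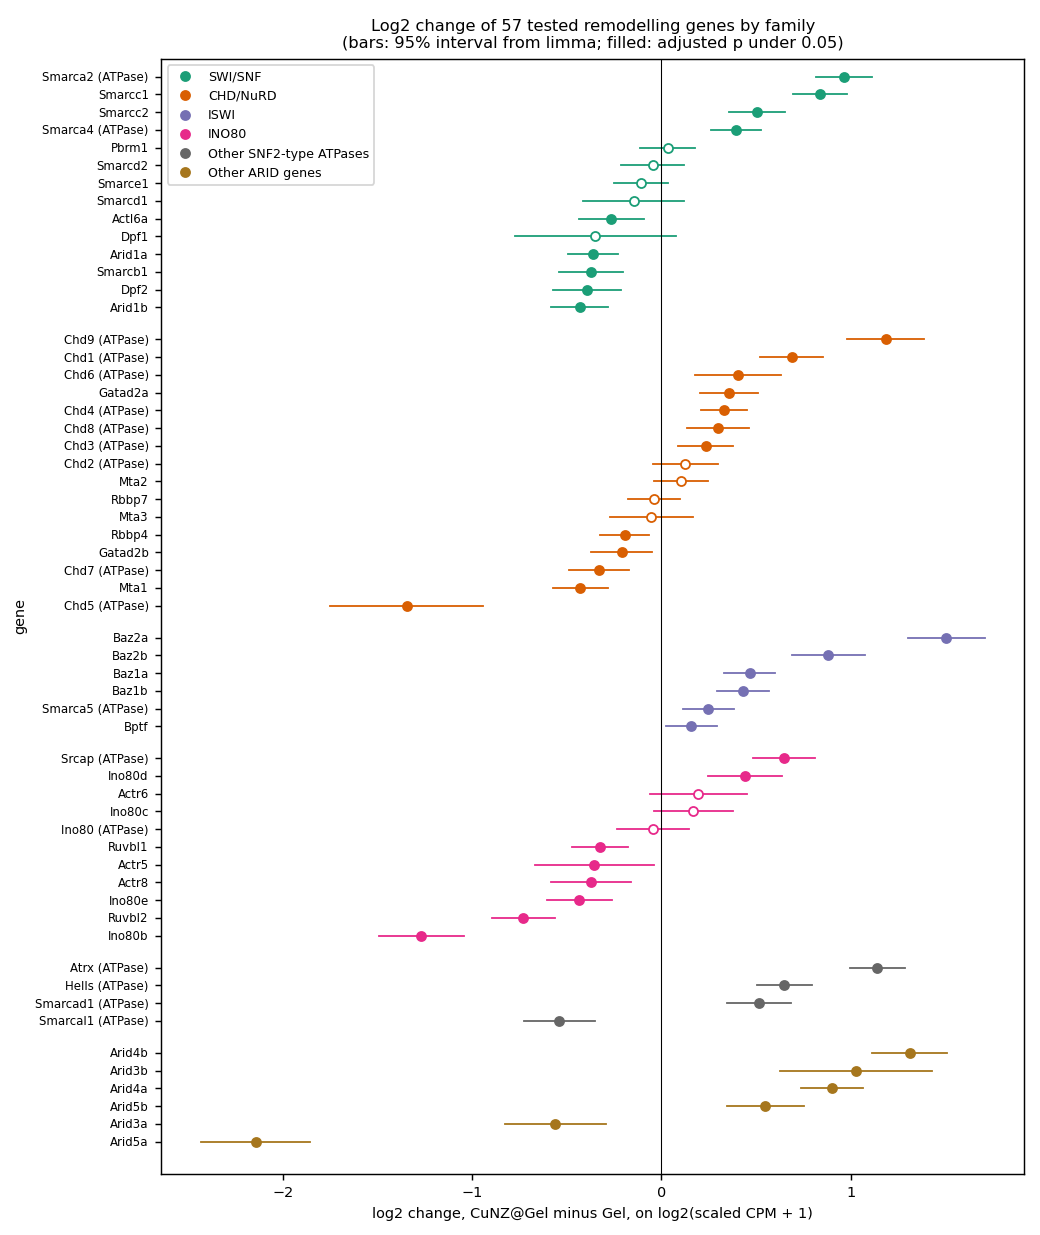
Log2 change (CuNZ@Gel minus Gel, on log2(scaled CPM + 1)) of the 57 tested genes, grouped by family and ordered within it. Points are estimates over 2 libraries per group, bars are 95% intervals from limma, and filled points passed an adjusted p under 0.05. All ISWI points lie right of 0, with Baz2a at 1.51, while INO80 runs from Ino80b at -1.27 to Srcap at 0.65.

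In SWI/SNF, both motor genes rose. Smarca2, which encodes the BRM ATPase, had 67.6 and 62.6 scaled CPM in Gel replicates 1 and 2 and 129 and 127 in CuNZ@Gel replicates 1 and 2. Both CuNZ@Gel values lay near 2 times the Gel values, and the log2 change was 0.97 (SE 0.07, limma adjusted p = 1.58e-10). Smarca4, which encodes the alternative ATPase BRG1, had 140 and 150 scaled CPM in Gel and 192 and 190 in CuNZ@Gel. The groups did not overlap, and its log2 change was smaller at 0.39 (SE 0.06, limma adjusted p = 1.64e-05).

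The paired scaffold genes Smarcc1 and Smarcc2 rose with the motors. Smarcc1 went from 85.9 and 84.6 to 159 and 147 scaled CPM, a 1.80-fold difference of the means. Smarcc2 went from 82.9 and 85.4 to 125 and 114 scaled CPM, or 1.42-fold. In Gel the scaffolds stood at nearly the same read level, and in CuNZ@Gel Smarcc1 was above Smarcc2 in both libraries. Per kb of transcript, Smarcc2 was the higher in Gel, at 18.4 ± 0.393 against 14.8 ± 0.168 scaled CPM (SD, n = 2). In CuNZ@Gel the scaffolds did not differ beyond their spread, at 26.3 ± 1.67 for Smarcc2 and 26.5 ± 1.46 for Smarcc1.

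The genes that define the canonical BAF form fell, but decreases were not particular to this form. Phf10 of the PBAF form, outside the name list, fell as well (log2 change -1.31). Arid1a, the DNA-binding subunit often lost in cancer, had 224 and 230 scaled CPM in Gel and 183 and 170 in CuNZ@Gel. Its alternative Arid1b had 105 and 115 against 79.7 and 82.8. The log2 changes were -0.36 and -0.43, with limma adjusted p of 3.94e-05 and 2.05e-05. Dpf2, a reader of histone marks in the same form, fell 1.32-fold, and its level went from 49.4 ± 0.568 to 37.4 ± 1.88 scaled CPM (n = 2 each, SD).

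Among the core subunits, Smarcb1 fell from 62.4 ± 0.435 to 48.1 ± 3.37 scaled CPM and Actl6a, an actin-related subunit shared with INO80, from 54.2 ± 2.54 to 44.9 ± 1.19. Actl6a did not pass without Gel replicate 1 (limma adjusted p = 0.0980). Pbrm1, the bromodomain subunit of the PBAF form, did not pass the test, with 102 and 109 scaled CPM in Gel and 112 and 104 in CuNZ@Gel (95% interval of the log2 change from -0.11 to 0.18). Smarce1, Smarcd1 and Smarcd2, which encode further core subunits, did not pass either, with log2 changes of -0.11, -0.15 and -0.05.

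Some subunit genes known from neurons and muscle were at the limit of detection. Dpf3 had 6 reads in Gel and 2 in CuNZ@Gel over both libraries, and Smarcd3 had 2 and 2. Both were below the test's filter, and 3 reads in a library corresponded to 0.189 to 0.234 scaled CPM. Of the Smarcd3 exon bases, 48.2% in GENCODE vM21 overlap Chpf2 on the other strand, so its few reads may belong to that gene. Dpf1 was low but above that limit, with 2.25 and 1.56 scaled CPM in Gel and 1.13 and 1.40 in CuNZ@Gel, and did not pass (adjusted p = 0.139 by limma).

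In the CHD family, 7 of the 9 motor genes were nominally higher in CuNZ@Gel and 6 of these passed the test. Their transcripts are all longer than 5 kb, and of all tested genes of at least 5 kb 55.8% rose. With length and GC content corrected for, only Chd1 and Chd9 were called as raised, and Chd2, Chd5 and Chd7 were called as lowered. Chd9 had 18.3 and 18.9 scaled CPM in Gel and 45.7 and 41.4 in CuNZ@Gel, a 2.34-fold difference of the means (log2 change 1.18, SE 0.10, limma adjusted p = 1.11e-09). Chd1, whose product binds methylated H3 at active genes, had 61.6 and 71.6 scaled CPM in Gel and 112 and 103 in CuNZ@Gel. The groups were well separated for both genes, and Chd1 rose 1.62-fold. Chd6 and Chd8 rose by 0.40 and 0.30 on the log2 scale, but not without CuNZ@Gel replicate 1 (limma adjusted p = 0.0603 and 0.0581), while Chd2 did not pass, at 0.13 (95% interval from -0.04 to 0.30).

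Chd5 and Chd7 went the other way. Chd5, the NuRD motor best known from neurons, had 4.78 and 4.05 scaled CPM in Gel and 0.883 and 1.40 in CuNZ@Gel. These values rest on 66 and 52 reads in Gel and 14 and 22 in CuNZ@Gel, and the gene passed the filter through its Gel level. The log2 change was -1.35 (SE 0.19, limma adjusted p = 3.50e-06). Chd7 fell from 76.9 and 72.0 to 60.6 and 57.3 scaled CPM, and with scaling by total reads only its log2 change was -0.14 (limma adjusted p = 0.101).

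Chd4 was the most abundant remodeller motor per transcript length. It stood at 53.9 ± 1.88 scaled CPM per kb in Gel, against 22.8 ± 1.14 for Smarca4, 23.1 ± 0.581 for Smarca5, 10.7 ± 0.281 for Chd3 and 0.466 ± 0.0548 for Chd5 (SD, n = 2). Smarca4 and Smarca5 did not differ beyond their spread. Chd4 itself had 370 and 352 scaled CPM in Gel and 456 and 451 in CuNZ@Gel, a 1.26-fold difference. Chd3 rose 1.18-fold, from 77.7 ± 2.04 to 91.4 ± 0.952 scaled CPM, but did not pass without Gel replicate 2 (limma adjusted p = 0.0743).

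**Figure D2:**
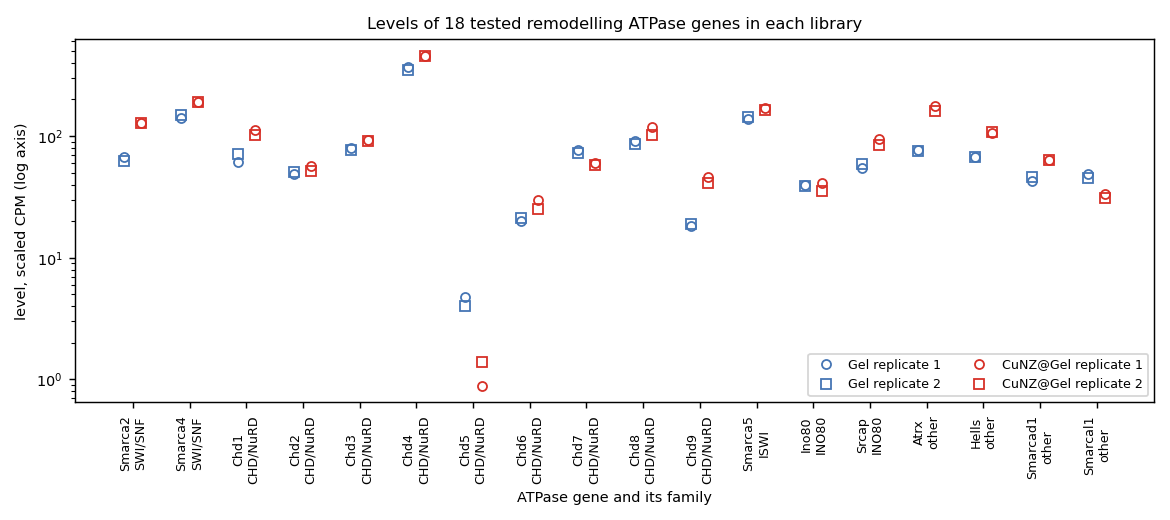
Level in scaled CPM (log axis) of the 18 tested SNF2-type ATPase genes in each of the 4 libraries, ordered by family. Blue marks are Gel and red marks CuNZ@Gel, with circles for replicate 1 and squares for replicate 2. Smarca2, Chd9 and Atrx separate widely, Chd5 is lower in CuNZ@Gel at levels near 1 scaled CPM, and the marks of Ino80 overlap.

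The non-motor NuRD genes were split. Mta1, a scaffold that binds histone deacetylases, had 107 and 110 scaled CPM in Gel and 80.2 and 80.0 in CuNZ@Gel, a log2 change of -0.43 (SE 0.07, limma adjusted p = 1.43e-05). Its paralogs Mta2 and Mta3 did not pass, at 0.10 and -0.05. Gatad2a, which encodes a p66 protein that bridges the parts of NuRD, rose from 61.4 and 61.6 to 79.8 and 78.4 scaled CPM. Gatad2b, which encodes the alternative p66 protein, fell from a mean of 131 ± 8.95 to 114 ± 12.7 scaled CPM, and its groups were close to each other (limma adjusted p = 0.0210). It did not pass without Gel replicate 1 or without CuNZ@Gel replicate 2 (limma adjusted p = 0.216 and 0.294). The histone-binding gene Rbbp4 fell by 0.19 on the log2 scale, and its paralog Rbbp7 did not pass (-0.04, 95% interval from -0.18 to 0.10). Without Gel replicate 1, 3 CHD/NuRD genes were called as lowered in place of 5, and Rbbp4 lost its call without Gel replicate 1, Gel replicate 2 or CuNZ@Gel replicate 1 (limma adjusted p = 0.0642, 0.0729 and 0.0540).

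In ISWI, the 4 Baz genes, which encode regulatory partners of the motor, had the largest changes. Baz2a, whose product TIP5 directs the NoRC complex to silent ribosomal RNA genes, had 18.5 and 21.6 scaled CPM in Gel and 61.7 and 56.0 in CuNZ@Gel. This 2.93-fold difference was the largest rise among the subunits of the 4 families (log2 change 1.51, SE 0.10, limma adjusted p = 2.19e-11). Baz2b had 47.2 and 53.9 against 104 and 84.2 scaled CPM. Its CuNZ@Gel libraries differed more from each other than those of Baz2a, but both were above Gel.

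Baz1a, of the nucleosome-spacing ACF complex, had 114 and 112 scaled CPM in Gel and 156 and 157 in CuNZ@Gel. Baz1b, of the WICH complex, moved almost identically, from 103 and 103 to 140 and 138. Smarca5, the ISWI motor SNF2H, had 138 and 144 scaled CPM in Gel and 172 and 164 in CuNZ@Gel, a log2 change of 0.25 (SE 0.06, limma adjusted p = 0.00189). Bptf, the largest NURF subunit, rose by 0.16 (limma adjusted p = 0.0381), but did not pass with any 1 library left out (limma adjusted p from 0.0634 to 0.171) and was called as lowered after correction for length and GC content (-0.33). Smarca1, the alternative motor SNF2L, had 2 reads in Gel and 0 in CuNZ@Gel over both libraries and was not tested.

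In the INO80 family, the 6 genes that fell were all subunits other than the SNF2-type motors. Ino80b had 41.1 and 42.4 scaled CPM in Gel and 15.1 and 18.5 in CuNZ@Gel. This 2.48-fold lower level was the largest decrease of the family (log2 change -1.27, SE 0.11, limma adjusted p = 1.39e-09). Ruvbl2, an AAA+ ATPase shared by INO80, SRCAP and TIP60, had 105 and 97.0 against 56.1 and 64.9 scaled CPM. Its partner Ruvbl1 had 100 and 98.1 against 76.2 and 82.0, and the log2 changes were -0.73 for Ruvbl2 and -0.32 for Ruvbl1. The groups did not overlap for either gene. A stretch of 10.7% of the Ruvbl2 exon bases overlaps Gys1 on the other strand, and the use of strand in counting is not given in the sources used here.

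Ino80e fell from 58.1 ± 1.25 to 42.8 ± 1.76 scaled CPM, and the actin-related genes Actr8 and Actr5 fell by 0.37 and 0.36 on the log2 scale. Actr8 did not pass without Gel replicate 2, nor Actr5 without Gel replicate 2 or CuNZ@Gel replicate 1 (limma adjusted p from 0.0502 to 0.244). Against these, Srcap, the motor that deposits H2A.Z, had 54.8 and 58.5 scaled CPM in Gel and 93.8 and 84.9 in CuNZ@Gel (log2 change 0.65, SE 0.08, limma adjusted p = 2.80e-07). A second annotated gene, Gm42715, covers 61.7% of the Srcap exon bases on the same strand in GENCODE vM21, so reads may have been shared. Ino80d rose by 0.44. Ino80 itself did not pass, with 39.6 and 39.2 scaled CPM in Gel and 41.0 and 35.5 in CuNZ@Gel (95% interval of the log2 change from -0.24 to 0.15). Ino80c and Actr6 did not pass, at 0.17 and 0.20. Without Gel replicate 2, 4 INO80 genes were called as lowered in place of 6, and without CuNZ@Gel replicate 2, 3 were called as raised in place of 2.

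Of the ATPases outside the families, Atrx had the smallest p of all 60 genes. It works with the chaperone Daxx to place a replacement H3 variant in silent repeats. Its levels were 76.7 and 76.1 scaled CPM in Gel and 178 and 162 in CuNZ@Gel, a 2.23-fold difference (log2 change 1.14, SE 0.07, limma adjusted p = 7.16e-12). Hells, which supports DNA methylation of repeats, had 67.5 and 67.9 scaled CPM in Gel and 106 and 107 in CuNZ@Gel. Smarcad1 rose by 0.52 on the log2 scale. Smarcal1, which remodels stalled replication forks, fell from 48.8 and 45.1 to 33.3 and 30.7 scaled CPM. Over all families, 13 of the 18 tested SNF2-type ATPase genes rose and 3 fell, and 9 of the 33 other subunits of the 4 families rose and 14 fell. These are 72.2% and 16.7% of the ATPase genes and 27.3% and 42.4% of the other subunits, against 32.2% and 34.8% of all tested genes. The other subunits thus lay near the share of all genes, and of all genes with transcripts of at least 5 kb, as most ATPase genes have, 55.8% rose and 15.6% fell.

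The ARID genes outside the remodellers held the largest decrease of the 60. Arid5a, whose product is known to stabilise inflammatory mRNAs, had 20.9 and 19.3 scaled CPM in Gel and 3.72 and 3.81 in CuNZ@Gel, a 5.34-fold lower level (log2 change -2.15, SE 0.14, limma adjusted p = 2.00e-11). Arid4b and Arid4a, partners of the SIN3 deacetylase complex, rose 2.56-fold and 1.89-fold. Arid4b went from 20.1 and 21.8 to 56.6 and 50.6 scaled CPM and Arid4a from 41.4 and 44.2 to 82.2 and 79.6. Arid5b rose from 24.3 ± 2.02 scaled CPM in Gel to 36.0 in both CuNZ@Gel libraries, and Arid3a fell from 21.6 ± 0.354 to 14.4 ± 2.88. Arid3b was low, with 28 reads in the Gel libraries and 101 in the CuNZ@Gel libraries, and rose by 1.03 on the log2 scale.

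Some of these genes are alternatives for a single place in a complex. Other pairs are related genes that are not, such as the partners Ruvbl1/Ruvbl2 and the separate motors Chd1/Chd2, Chd6/Chd7 and Chd8/Chd9. For each pair, the balance between the paralogs was followed as the log2 ratio of their levels in each library. A constant factor for the length of each gene cancels in the change of such a ratio, whereas a dependence of the change on length does not. Of 15 pairs, 12 had ratios that did not overlap between the groups, and 7 shifted by at least 0.5 on the log2 scale. Among all tested genes taken singly, 83.2% did not overlap, and no share over other pairs of genes was computed. The count of 12 therefore does not set these pairs apart from other genes. With 2 libraries against 2 the exact two-sided permutation test cannot go below p = 0.333, so these shifts are given as a description.

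The motor pair Smarca2/Smarca4 had log2 ratios of -1.04 and -1.25 in Gel and -0.57 and -0.58 in CuNZ@Gel, a shift of 0.57 toward Smarca2 (exact permutation p = 0.333). Per kb of transcript, Smarca2 stood at 11.0 ± 0.596 against 22.8 ± 1.14 for Smarca4 in Gel, and at 21.6 ± 0.203 against 29.9 ± 0.148 in CuNZ@Gel. Smarca4 thus remained the higher of the pair in both groups. The pair Gatad2a/Gatad2b shifted by 0.57 toward Gatad2a, Baz2a/Baz2b by 0.62 toward Baz2a, and Mta1/Mta2 by 0.53 toward Mta2. Chd8/Chd9 moved most, from 2.27 and 2.14 in Gel to 1.37 and 1.27 in CuNZ@Gel. With each library corrected for GC content and transcript length, the shifts were 0.53 for Smarca2/Smarca4, 0.84 for Gatad2a/Gatad2b, 0.70 for Baz2a/Baz2b, -0.44 for Mta1/Mta2 and -0.72 for Chd8/Chd9. Smarcc1/Smarcc2 went from 0.33 to 0.14 and Rbbp4/Rbbp7 from -0.15 to -0.39. By contrast Arid1a/Arid1b and Smarcd1/Smarcd2 overlapped between the groups, and Baz1a/Baz1b shifted by 0.04 only.

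**Figure D3:**
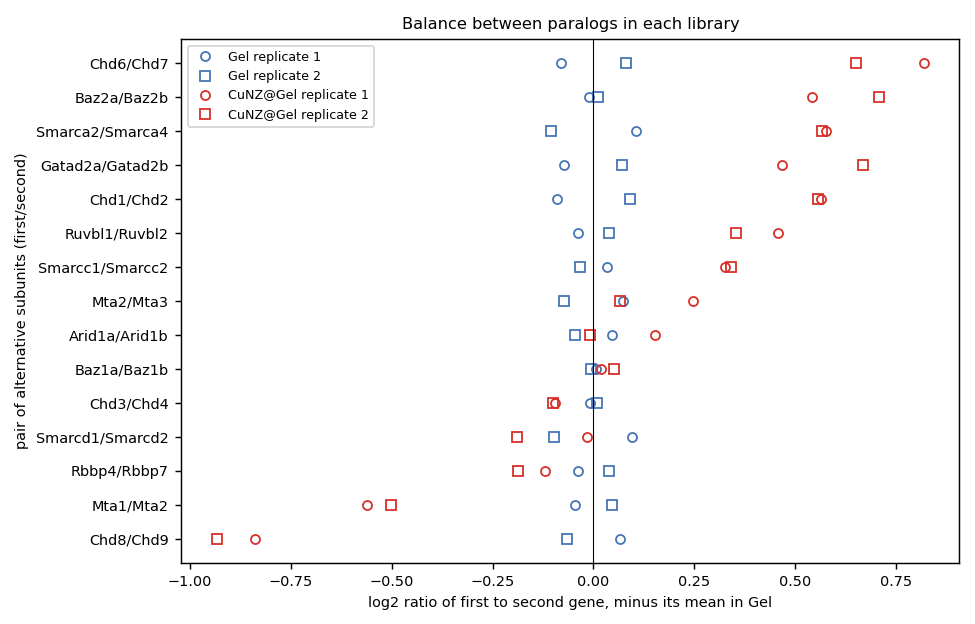
Log2 ratio of the first to the second gene of 15 paralog pairs in each library, with the mean of the Gel libraries set to 0. Blue marks are Gel and red marks CuNZ@Gel, with circles for replicate 1 and squares for replicate 2. Chd6/Chd7 has the largest shift to the right (0.74) and Chd8/Chd9 the largest to the left (-0.89).

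Subunits and partners outside the name list were examined as a further set of 42 genes, of which 38 were tested. Levels rose for 7 and fell for 25 (18.4% and 65.8%), where 32.2% and 34.8% of all tested genes were called. With scaling by total reads only, 12 rose and 16 fell (31.6% and 42.1%, against 43.3% and 24.8% of all genes). After correction for length and GC content, 4 of 36 rose and 18 fell (against 30.1% and 35.6% of all genes). In the SWI/SNF set, 2 of 12 tested genes rose and 7 fell (16.7% and 58.3%). Phf10, a PBAF subunit, had 166 and 180 scaled CPM in Gel and 70.8 and 67.0 in CuNZ@Gel (log2 change -1.31, SE 0.07, limma adjusted p = 9.20e-13). An antisense neighbour covers 9.57% of its exon bases. Bcl7a and Bcl7c fell by 0.76 and 0.82, and Bicra, of the non-canonical BAF form, and the SS18 paralog Ss18l1 rose by 0.54 and 0.47. Actl6b, Bcl11a and Bcl11b, known from neurons or lymphocytes, were listed at 0 in all libraries, as was Cecr2.

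Of the NuRD partners, the deacetylase gene Hdac1 rose by 0.33, and Mbd3 and Cdk2ap1 fell by 0.55 and 0.52. In ISWI, Chrac1 and Pole3, the small histone-fold subunits of CHRAC, fell by 0.88 and 0.26, while Rsf1, a large partner of Smarca5, rose by 0.40. A stretch of 9.31% of the Chrac1 exon bases overlaps Ago2 on the other strand. Ago2 had 287 and 287 scaled CPM in Gel and 193 and 176 in CuNZ@Gel, and its part in the Chrac1 reads was not tested. In the INO80, SRCAP and TIP60 set, 3 of 12 rose and 8 fell (25% and 66.7%), against 32.2% and 34.8% of all tested genes. Scaled by total reads only, 4 of these 12 rose and 6 fell, where 43.3% and 24.8% of all tested genes were called. After correction for length and GC content, 1 rose and 7 fell (8.33% and 58.3%), against 30.1% and 35.6% of all genes. The large scaffold Trrap had 57.4 and 57.1 scaled CPM in Gel and 108 and 101 in CuNZ@Gel, and Ep400 and Nfrkb rose by 0.26 and 0.38. Yeats4, Vps72 and Dmap1, small subunits that SRCAP uses to bind H2A.Z or acetylated histones or shares with TIP60, fell by 0.78, 0.60 and 0.81. Some of these calls rested on single libraries: Ep400 and Ss18l1 did not pass without Gel replicate 1 or without CuNZ@Gel replicate 1, Pole3 without Gel replicate 1, and Nfrkb without Gel replicate 2 (limma adjusted p from 0.0829 to 0.334). The genes of the exchanged histone variants fell as well. H2az2 had 57.04 and 46.24 scaled CPM in Gel and 15.2 and 17.8 in CuNZ@Gel, its paralog H2az1, named after its values were seen, fell by 0.36, and the replacement H3 genes H3f3b and H3f3a fell by 0.85 and 0.68.

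Transcript length moved with these changes. Across the 10898 tested genes with a transcript in GENCODE vM21, Pearson's r between the log2 change and the log2 of transcript length was 0.297. It was 0.401 over the 57 members, and in both cases the points are genes of the same 4 libraries and not independent replicates. Of 33 members with a transcript of at least 5 kb, a boundary set after the values were seen, 23 rose and 7 fell, and of 24 shorter members 3 rose and 12 fell. Over all genes, 55.8% of those of at least 5 kb rose and 15.6% fell, against 26.2% and 39.9% of the shorter genes. The median transcript was 7.59 kb for the tested ATPase genes and 3.14 kb for the other subunits of the 4 families. ISWI had a median of 7.19 kb and INO80 of 2.33 kb.

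Each library was therefore also corrected for a smooth dependence on length and GC content. The members then had 19 raised and 19 lowered genes (33.3% each), against 30.1% and 35.6% of all genes (65.7% in either direction). The part of length in the uncorrected counts was not tested further. ISWI had 4 raised and 1 lowered of 6, INO80 had 1 and 5 of 11, SWI/SNF 4 and 4 of 14, and CHD/NuRD 4 and 6 of 16. The ATPase genes had 8 raised and 5 lowered, and the other subunits 8 and 12. Members of at least 5 kb had 15 raised and 11 lowered of 33 (45.5% and 33.3%), against 32.6% and 35.5% of all genes of that length. Shorter members had 4 raised and 8 lowered of 24 (16.7% and 33.3%), against 29.5% and 35.7% of all shorter genes.

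Many changes kept their direction and their call, large ones and small ones such as Gatad2a (0.24) and Dpf2 (-0.40) alike. Baz2a stood at 1.17, Atrx at 0.61, Smarca2 at 0.74, Smarcc1 at 0.57, Chd9 at 0.63 and Arid4b at 0.98 after the correction, and Ino80b at -0.89, Ruvbl2 at -0.52, Chd5 at -1.64 and Arid5a at -2.28. The decreases of the long genes Arid1a, Arid1b and Chd7 were larger, at -0.62, -0.85 and -0.74. Gatad2b and Rbbp4, whose uncorrected calls were lost with single libraries left out, also had larger decreases, at -0.60 and -0.41. Others did not keep their call. Chd4 (0.09), Chd3 (0.01), Smarcb1 (-0.11), Actl6a (-0.16), Ruvbl1 (-0.10), Actr5 (-0.11) and Arid5b (0.16) no longer passed. Smarca5, Chd6, Chd8 and Ino80d changed sign without passing, Bptf passed as lowered (-0.33), and Chd2, Pbrm1 and Ino80, which had not passed before, passed as lowered (-0.31, -0.40 and -0.34), and Mta2 passed as raised (0.15). Among the partners, Phf10 (-1.17), Chrac1 (-0.52), Dmap1 (-0.53) and Trrap (0.42) kept their calls, while Rsf1, Ep400, Nfrkb, Pole3, Bcl7c and Ss18l1 did not.

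**Figure D4:**
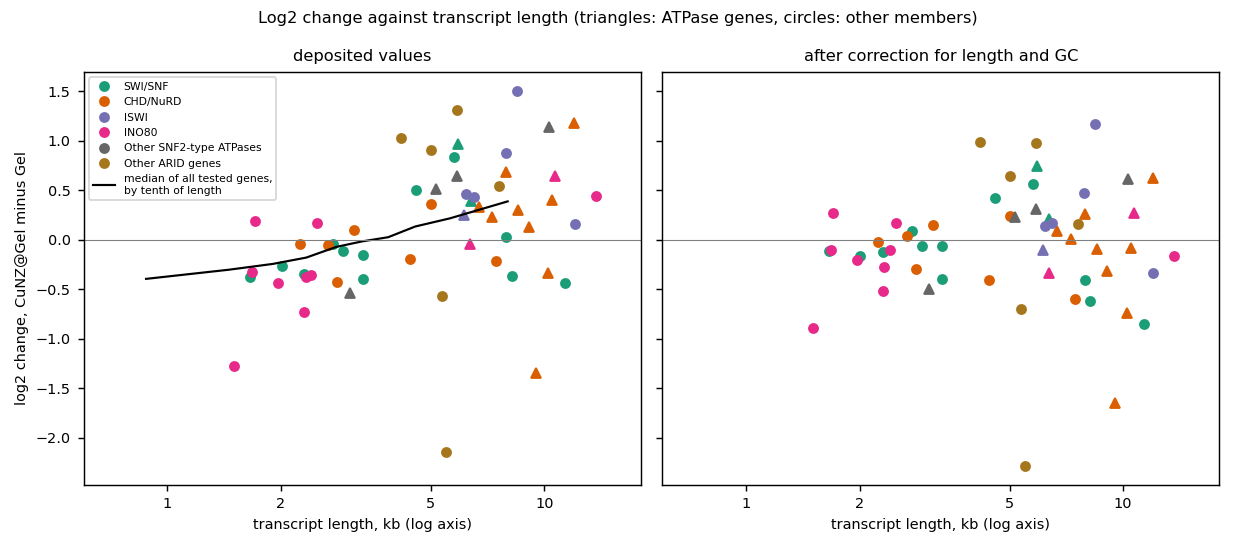
Log2 change (CuNZ@Gel minus Gel) against transcript length (kb, log axis) for the 57 tested members, before (left) and after (right) correction for length and GC content. Triangles are ATPase genes, circles other members, colours are families, and the black line is the median of all tested genes in 10 bins of length, from -0.39 to 0.39. The median of the members of at least 5 kb is 0.39 on the left and 0.09 on the right. For the shorter members it is -0.23 and -0.10, so the difference is smaller on the right but remains. Baz2a and Arid5a stay far from 0.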

How the data were processed

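RNA sequencing libraries (CORALL RNA-seq V2 kit, per the labels' protocols) were read from 4 deposited tables, 1 per library, each with 1 log2 value for each of 40213 symbols. The submitters' processing notes name STAR, Salmon, fastp and GATK and the build GRCm39. Versions, settings, annotation and normalization were not given in the sources used here. Judged by its values, each deposited log2 value was log2(x + 1) with x in scaled CPM, and the authors' further factors were 0.937, 0.936, 1.07 and 1.07. Of the values of at most 1, 92.7% to 93.5% were whole multiples of the value of 1 read within 0.02 reads. Limits from low reads cover counting error only.

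The planned test allowed for counts or log2 values, and the latter was used. The test was limma 3.58.1 (R 4.3.3) with a variance trend and the group as its only term, fitted to all 4 libraries over the genes that reached 1 scaled CPM in 2 or more of them. Benjamini-Hochberg adjustment ran over all tested genes (threshold 0.05). Log2 changes use a pseudocount of 1 and understate changes at low levels. Transcript length and GC content are those of the longest protein-coding transcript of GENCODE vM21 (else the longest transcript), found for 94.0% of tested genes (all tested members), and were fitted by splines with 5 degrees of freedom each. H2az1 and H2az2 had none. The procedure was also run on simulated data with a fixed low dispersion and no dependence on length. Those settings differ from the data, so the simulated run does not bear on the calls given here.

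Members and lists were chosen with earlier results of these data known. Values are given by library for every ATPase gene or for the genes with the smallest p (up to 4 per direction and family, 3 for partners), and other members by log2 change.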

Additional observations from a re-analysis of the deposited data

How the results depend on the processing

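The counts of members raised and lowered (26 and 19) stayed within 1.5 times under a pseudocount of 0.1, relative log expression scaling, the replicate block, limma-voom on recovered read numbers, and a filter either dropped or set to 5 scaled CPM. With total reads only, lowered genes numbered 11 in all, 3 in SWI/SNF, 2 in CHD/NuRD and 3 in INO80, and 4 INO80 genes were raised. Against a minimum fold of 1.5 the raised numbered 8 in all, 2 in SWI/SNF, 1 in CHD/NuRD, 2 in ISWI and 0 in INO80, and the lowered 3, 0, 1, 0 and 1. The length and GC correction left 4 raised in CHD/NuRD and 1 in INO80, with 1 lowered in ISWI. With 1 library left out, 23 to 26 members were raised and 16 to 18 lowered, with 3 to 4 lowered in CHD/NuRD, 4 to 6 in INO80 and 4 to 5 in SWI/SNF. Raised genes then numbered 5 to 7 in CHD/NuRD and 2 to 3 in INO80. The count of paralog pairs without overlap was 12 under the scalings, the pseudocount of 0.1 and the correction.

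Same-numbered libraries did not deviate together (r = -0.116 over 11588 genes), and the labels do not pair them. With the replicate number as a block, 25 members were raised and 19 lowered, and of 78 named genes only Bptf lost its call (0.16, limma adjusted p = 0.119). A crossed pairing, added after the data were seen, gave 26 and 19. The replicate block together with the length and GC correction gave 17 raised and 19 lowered, with 3 raised in CHD/NuRD, 3 raised and 1 lowered in ISWI, and 1 raised in INO80.

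Signs changed for 11 named genes after the length and GC correction, with and without the replicate block: Bptf (-0.33), Chd2 (-0.31), Chd6 (-0.080), Chd8 (-0.090), Ep400 (-0.15), Ino80d (-0.16), Rsf1 (-0.15), Smarca5 (-0.10), Pbrm1 (-0.40), Mta3 (0.035) and Smarcd2 (0.094). Among genes that had not passed, signs also changed with total reads only for Ino80 (0.14), Mta3 (0.13), Rbbp7 (0.15), Smarcd1 (0.030), Smarcd2 (0.14) and Smarce1 (0.079). With 1 library left out, the log2 change crossed 0 for Ino80 (-0.147 to 0.057, positive without CuNZ@Gel replicate 2), Mta3 (-0.1115 to 0.0035) and Rbbp7 (-0.1035 to 0.0225), both positive without CuNZ@Gel replicate 1, and Pbrm1 (-0.022 to 0.086, negative without replicate 1 of either group). Actr5 lost its call with relative log expression scaling, limma-voom, no filter and a pseudocount of 0.1 (limma adjusted p from 0.0504 to 0.143), and 8 other named genes lost theirs with no filter. Apart from the correction itself, which accounts for its own shifts, the cause was not tested. Depth limits Dpf1, Chd5 and Arid3b most, and Smarca1, Smarcd3 and Dpf3 were too low to test.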
